A study of Homo sapiens with 4 samples.

Results

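The regions described here are stretches of H3K27ac signal whose midpoint lies in a simple repeat, a low-complexity stretch or a satellite. They were chosen by the annotation that the deposited tables give for each midpoint, and they number 978 of 45672 regions in 4 tables. Since the rule reads the called regions themselves, how many there are in each table is a description, and no test was made on it. The study compared Kasumi-1 cells carrying a control guide (sgNT, genotype WT) with Kasumi-1 cells in which SETD8 was knocked out by CRISPR/Cas9 (sgSETD8), with H3K27ac mapped by CUT&Tag from 100000 cells a library. There were 2 samples of each genotype, all of the same line and with no treatment named in the labels. The labels do not say whether the 2 samples of a genotype came from separate cultures or knockouts, and the tables show a genotype but not which of its 2 samples they hold. Loss of SETD8 itself was not analysed here, since H3K27ac does not report it.

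Kasumi-1 is an acute myeloid leukaemia line with the t(8;21) translocation that fuses RUNX1 to RUNX1T1. SETD8, also called KMT5A, is the enzyme that places a single methyl group on lysine 20 of histone H4, and H3K27ac marks active enhancers and promoters. Simple repeats, or microsatellites, are short units copied head to tail, low-complexity stretches are rich in 1 or a few bases without a fixed unit, and satellites are long tandem arrays that gather at centromeres and other heterochromatin. Tracts in which purines and pyrimidines alternate, such as (CA)n and its reverse complement (TG)n, can adopt the left-handed Z form of DNA. In CUT&Tag an antibody guides a transposase that cuts and tags the DNA beside the mark.

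The 4 tables form 2 pairs that differ in size by more than the genotypes do, so each pair is given on its own. One pair, called sparse here, held 5186 sgNT and 7276 sgSETD8 regions over 7.75 and 6.89 Mb. The other, called dense, held 15149 sgNT and 18061 sgSETD8 regions over 133 and 153 Mb. Genes named here are those the tables assign to a region, usually the nearest start site, and are no evidence of control. Of 30 haematopoietic transcription factor genes, 17, 16, 23 and 22 had a region assigned in the sparse sgNT, sparse sgSETD8, dense sgNT and dense sgSETD8 tables, and of 20 myeloid and progenitor genes 11, 12, 14 and 16 had one.

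A midpoint annotated to a promoter or exon is outside the rule, so the distance of midpoints from gene starts is partly set by it. Over their whole length 2, 1, 12 and 12 of the repeat-centred regions, in the order of tables just given, overlapped the 300-base window around a RefSeq gene start (250 bases before to 50 after). These were 2.94, 0.1698, 8.39 and 6.74%, beside 1.68, 0.288, 10.0 and 9.56% of regions with a LINE, SINE, LTR or DNA transposon midpoint and 2.12, 0.770, 10.8 and 10.5% of all regions. In the sparse sgNT table a region with a (CCTCC)n midpoint inside such a window is chr22:49838667-49839160, assigned to BRD1, which encodes a bromodomain protein of histone acetyltransferase complexes. The only repeat-centred region of the sparse sgSETD8 table that overlaps a window is chr6:158852748-158853343, with a (CA)n midpoint, assigned to OSTCP1. Its midpoint lies outside the window, and its last bases reach the window of LOC124901448. The RefSeq windows (GRCh38.p14) of these regions are printed to show the start-site sequence they reach. The first window holds the midpoint of its region, and so at least part of the (CCTCC)n tract. The second lies 293 bp from the midpoint of its region, and the (CA)n sequence at that midpoint is not printed. Capitals mark each match to the letters of the unit, CCTCC or its reverse complement GGAGG in the first, at chr22:49838844-49839143 on the minus strand, and CACAC or GTGTG in the second, at chr6:158853338-158853637 on the plus strand, with overlapping matches joined.
LOC105377205 window: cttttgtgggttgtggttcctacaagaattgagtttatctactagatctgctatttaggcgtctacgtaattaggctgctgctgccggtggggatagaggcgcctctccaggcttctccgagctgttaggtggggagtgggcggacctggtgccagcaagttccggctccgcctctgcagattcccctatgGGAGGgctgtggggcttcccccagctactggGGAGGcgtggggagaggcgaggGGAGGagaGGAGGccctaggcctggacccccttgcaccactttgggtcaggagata
LOC124901448 window: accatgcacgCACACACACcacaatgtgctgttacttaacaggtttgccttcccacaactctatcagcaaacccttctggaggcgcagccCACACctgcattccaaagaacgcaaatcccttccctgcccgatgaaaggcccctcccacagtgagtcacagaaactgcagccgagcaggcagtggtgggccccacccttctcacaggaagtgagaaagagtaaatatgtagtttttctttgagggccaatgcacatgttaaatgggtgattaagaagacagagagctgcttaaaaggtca
The first window held 4 separate matches to GGAGG and the second held 2 to CACAC, the longer one just beyond the end of the region. The other overlapping region of sparse sgNT, with a (TG)n midpoint and assigned to INSIG1, reached the window of LOC124901783. That window lies 460 bp from the midpoint, held 0 matches to CACAC or GTGTG and is not printed. Short matches of this kind are common: CCTCC or GGAGG occurred in 77.4% and CACAC or GTGTG in 42.0% of 35116 RefSeq windows of the same length. A run of 6 cytosine-adenine units, CACACACACACA or TGTGTGTGTGTG, occurred in 0.604% of them.

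Repeat-centred regions were 68 of the sparse sgNT table, or 1.31% (95% exact Clopper-Pearson interval 1.02 to 1.66%). They were 589 of the sparse sgSETD8 table, or 8.10% (7.48 to 8.75%). In the dense pair they were 143 of the sgNT table, or 0.944% (0.796 to 1.11%), and 178 of the sgSETD8 table, or 0.986% (0.847 to 1.14%). The sparse sgSETD8 table thus stood apart, and the other 3 tables lay between 0.944% and 1.31%. The intervals cover the counting of regions only and hold no spread between libraries, because each pair has 1 table a genotype. The read depth of the tables is also unknown. The share with sgSETD8 over that with sgNT was 6.17 in the sparse pair and 1.04 in the dense pair. On the log2 scale these ratios were 2.63 and 0.06, with a mean of 1.34 ± 1.81 (SD, n = 2 pairs), so the spread between pairs was larger than the mean. With 2 tables against 2, an exact two-sided permutation test cannot give a p under 0.33. The sparse sgSETD8 table had 2090 more regions than its sgNT partner, and 521 more repeat-centred regions, a number equal to 24.9% of that surplus. In the dense pair the surplus was 2912 regions, and the repeat-centred difference of 35 equalled 1.20% of it.

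Simple repeats made up most of these regions. They numbered 55 in sparse sgNT, 548 in sparse sgSETD8, 124 in dense sgNT and 136 in dense sgSETD8, or 1.06, 7.53, 0.819 and 0.753% of each table. The sgSETD8 to sgNT ratio of these shares was 7.10 in the sparse pair and 0.920 in the dense pair. Low-complexity midpoints numbered 8, 9, 19 and 41, with a log2 ratio of -0.32 in the sparse pair and 0.86 in the dense pair. Satellites numbered 5 and 32 in the sparse pair, or 0.0964% and 0.440%, and 0 and 1 in the dense pair. The 0 of 15149 regions in dense sgNT allows a share of up to 0.0198% when a count of 0 is taken to allow 3. The upper limit of the exact interval is 0.0243%. Among the interspersed repeats the sparse-pair log2 ratio of shares was 0.95 for LINE elements, 0.56 for LTR elements, 0.39 for DNA transposons and -0.01 for SINE elements, and it was -0.52 for midpoints with no repeat. In the dense pair each of these classes lay between -0.03 and 0.10.

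**Figure D1:**
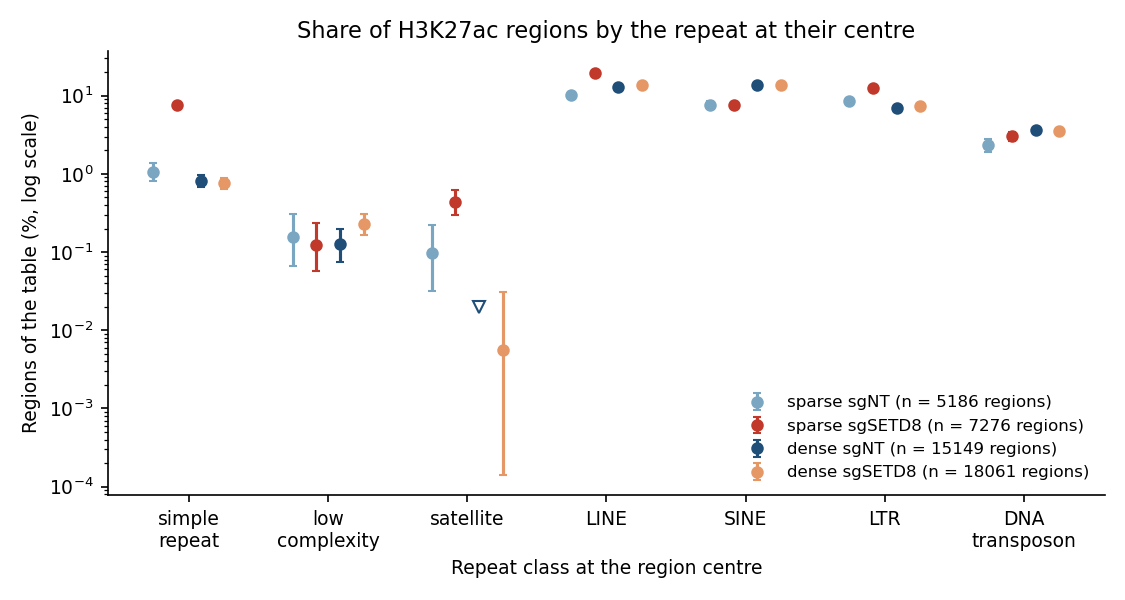
Share of all regions of a table (percent, log scale) by the repeat class at the region midpoint; points are the 4 tables, bars the exact 95% Clopper-Pearson intervals, and the open triangle the limit that a count of 0 allows. The triangle stands at 0.0198%, where a count of 0 is taken to allow 3 regions. Simple repeats are 7.53% of the sparse sgSETD8 table and between 0.753% and 1.06% of the others, and satellites are 0.440% of it against 0.0964% or less.

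A single dinucleotide made up most of the simple repeats of the sparse sgSETD8 table. Units were written in a common form that joins all phases and both strands, so that (CA)n, (AC)n, (TG)n and (GT)n are all the AC unit. AC-unit regions numbered 16 in sparse sgNT, 408 in sparse sgSETD8, 28 in dense sgNT and 40 in dense sgSETD8. These were 0.309, 5.61, 0.185 and 0.221% of all regions. They were 29.1% of the simple-repeat regions of sparse sgNT and 74.5% of those of sparse sgSETD8. In sparse sgSETD8 196 of the 408 were written as CA or AC on the plus strand and 212 as TG or GT. Without the AC unit 52 repeat-centred regions were left in sparse sgNT and 181 in sparse sgSETD8, or 1.00% (0.750 to 1.31%) and 2.49% (2.14 to 2.87%), and the log2 ratio was 1.31. In the dense pair 115 and 138 were left, or 0.759% and 0.764%.

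Alternation of purine and pyrimidine was also frequent among the other units of the sparse sgSETD8 table. The AT unit was next after AC with 40 regions, followed by ACACAT with 11, ACAT with 9, and ACATGC and AGGGCC with 4 each. In all but the last of these, purine and pyrimidine alternate along the tract. Alternating units made up 477 of 548 simple-repeat regions, or 87.0% (83.9 to 89.7%). They were 22 of 55 (40.0%) in sparse sgNT, 41 of 124 (33.1%) in dense sgNT and 52 of 136 (38.2%) in dense sgSETD8. Leaving out the AC unit, 69 of 140 alternated in sparse sgSETD8 (49.3%), 6 of 39 in sparse sgNT (15.4%), 13 of 96 in dense sgNT (13.5%) and 12 of 96 in dense sgSETD8 (12.5%). Tracts with purines alone on a given strand, such as (A)n or (AG)n, ran the other way: 4 regions or 0.730% in sparse sgSETD8, 9 or 16.4% in sparse sgNT, 33 or 26.6% in dense sgNT and 40 or 29.4% in dense sgSETD8. Units of 5 to 10 bases were 47.3% of the simple-repeat regions in sparse sgNT and 14.1% in sparse sgSETD8. The tables held 30, 64, 52 and 55 different units, in the order sparse sgNT, sparse sgSETD8, dense sgNT and dense sgSETD8.

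**Figure D2:**
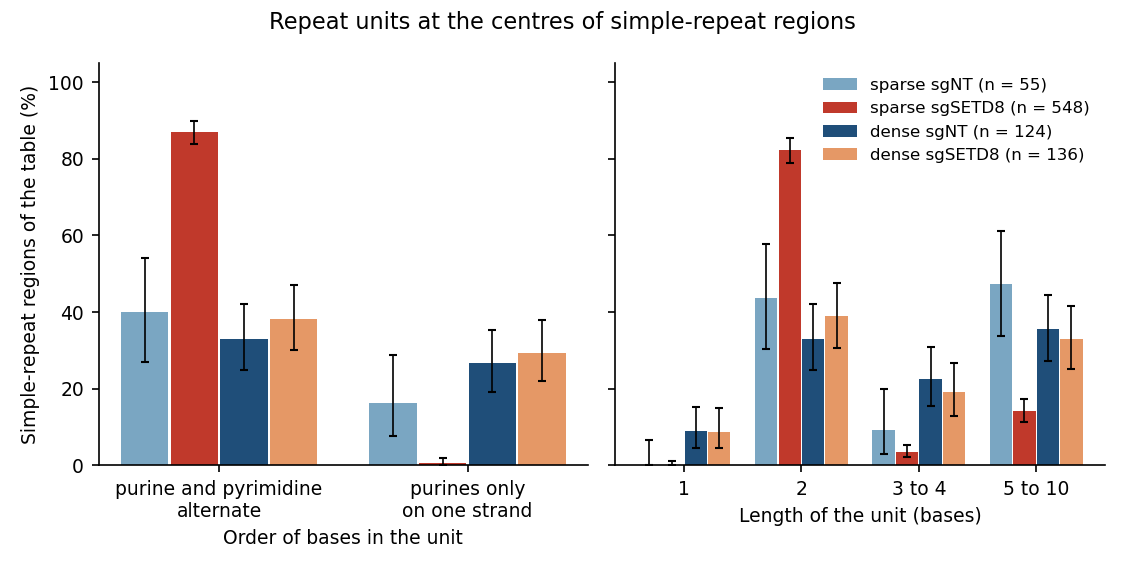
Percent of the simple-repeat regions of each table whose unit alternates purine and pyrimidine or holds purines alone on a given strand (left), and percent by unit length in bases (right); bars are the 4 tables and error bars exact 95% Clopper-Pearson intervals. Alternating units are 87.0% in sparse sgSETD8 and 33.1 to 40.0% in the other tables.

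The AC-unit regions of the sparse sgSETD8 table were mostly single peaks, wider and of higher signal than was typical of that table. Their median width was 430.5 bp (quartiles 319 and 600), against 336 bp for the regions of that table outside the repeat-centred classes. Of them 3.68% joined more than 1 peak, against 8.93% of the regions outside those classes. The shortest width in the table was 274 bp, and 14.2% of AC-unit regions had exactly that width, against 30.8% of the regions outside those classes. Signal density is the deposited signal divided by width, in units whose scaling the sources used here do not give, so it is compared between regions of the same table here. Its median was 1.11 for AC-unit regions, 0.792 for regions outside the repeat-centred classes, 0.701 for LINE midpoints and 0.886 for midpoints without a repeat. Regions were ranked by signal, and a rank percentile of 0 is the highest signal of a table. The median rank percentile was 27.03 for the AC unit, 45.6 for the AT unit, 29.3 for all repeat-centred regions and 51.9 for the regions outside those classes. In sparse sgNT it was 77.3 for the 16 AC-unit regions, the lower-signal side of that table.

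Repeat-centred regions were not spread evenly over the ranks of the sparse sgSETD8 table. They were 5.0% of ranks up to 500, 14.8% of ranks 501 to 1000, 17.8% of ranks 1001 to 2000 and 3.69% of ranks after 5000. By width they were 5.20% of regions of up to 300 bp, 15.9% of those of 501 to 700 bp, 21.6% of those of 701 to 1000 bp and 1.75% of those over 2000 bp. In sparse sgNT the share lay between 0.600% and 1.91% in every width class. Among regions of at least 500 bp the share was 1.24% with sgNT and 12.7% with sgSETD8 in the sparse pair, and among the best-ranked 5000 regions of each table it was 1.36% and 10.1%. The same subset of the dense pair held 1.12% with sgNT and 1.06% with sgSETD8, a log2 ratio of -0.08 where all regions gave 0.06. The share was thus not highest among the shortest or the lowest-ranked regions.

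**Figure D3:**
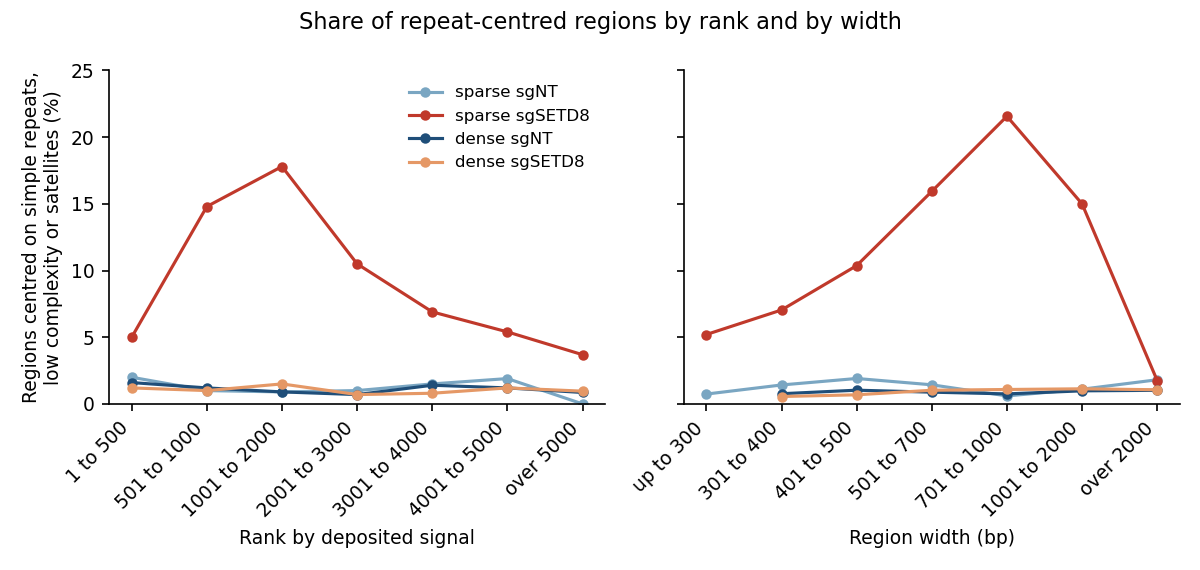
Percent of regions centred on a simple repeat, low-complexity stretch or satellite, by rank of the deposited signal (left) and by region width in bp (right), for the 4 tables; classes with fewer than 20 regions are not drawn. The sparse sgSETD8 line peaks at 17.8% for ranks 1001 to 2000 and at 21.6% for widths of 701 to 1000 bp, and the other tables lie between 0% and 2%.

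AC-unit regions of the sparse sgSETD8 table were found on 22 of 23 chromosomes (1 to 22 and X). They were 15.5% of the regions of chromosome 22, 14.5% of those of chromosome 9, 12.0% of those of chromosome 16 and 1.55% of those of chromosome 3, and there were 0 among 84 regions of chromosome X. The repeat-centred share was higher with sgSETD8 on 23 of 23 chromosomes in the sparse pair and on 13 of 23 in the dense pair. By annotation 53.7% of AC-unit regions were intergenic, against 46.0% of the regions outside the repeat-centred classes, 54.4% of LINE midpoints and 39.7% of midpoints without a repeat. The median distance to the assigned start site was 36071.5 bp. They were assigned to 380 genes, of which 357 had a single AC-unit region. SALL3, a zinc finger gene, had 3, and TG (thyroglobulin), MYT1 and KCNQ1 were among 22 genes with 2.

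Few of the sparse sgSETD8 regions had a counterpart, that is a region of the partner table sharing at least 1 bp. Of the 589 repeat-centred regions 549 had none, or 93.2% (90.9 to 95.1%), beside 85.1% of all regions of the table. For the AC unit it was 393 of 408, or 96.3% (94.0 to 97.9%), and for LINE midpoints 91.0%. In sparse sgNT 39 of 68 had none, or 57.4% (44.8 to 69.3%), beside 79.1% of all regions. In the dense pair 37 of 143 sgNT regions had none, or 25.9%, beside 22.7% of all regions, and 62 of 178 sgSETD8 regions had none, or 34.8%, beside 34% of all regions. The dense shares were near those of their tables.

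The sparse sgSETD8 regions were also looked for in the dense tables. Of the repeat-centred ones, 76 of 589 overlapped a region of either dense table, or 12.9% (10.3 to 15.9%), against 30.7% of the regions outside those classes. The share was 11.0% (8.16 to 14.5%) for the AC unit, 21.6% for LINE midpoints and 35.8% for midpoints without a repeat. In sparse sgNT 40 of 68 repeat-centred regions were found in the dense tables, or 58.8%, against 79.2%. Restricted to regions found in the dense pair, the repeat-centred share was 0.977% in sparse sgNT and 3.56% in sparse sgSETD8, a log2 ratio of 1.87. Among regions not found there it was 2.57% and 9.97%. The difference between the sparse tables was therefore present in both parts, and it was larger, in percentage points, where the dense tables had no region. Regions not found there were 1091 of 5186 in sparse sgNT and 5144 of 7276 in sparse sgSETD8, so the parts weigh differently in each table. What sets the sparse sgSETD8 table apart was not tested, and in a pair with 1 table a genotype, genotype and library cannot be told apart.

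**Figure D4:**
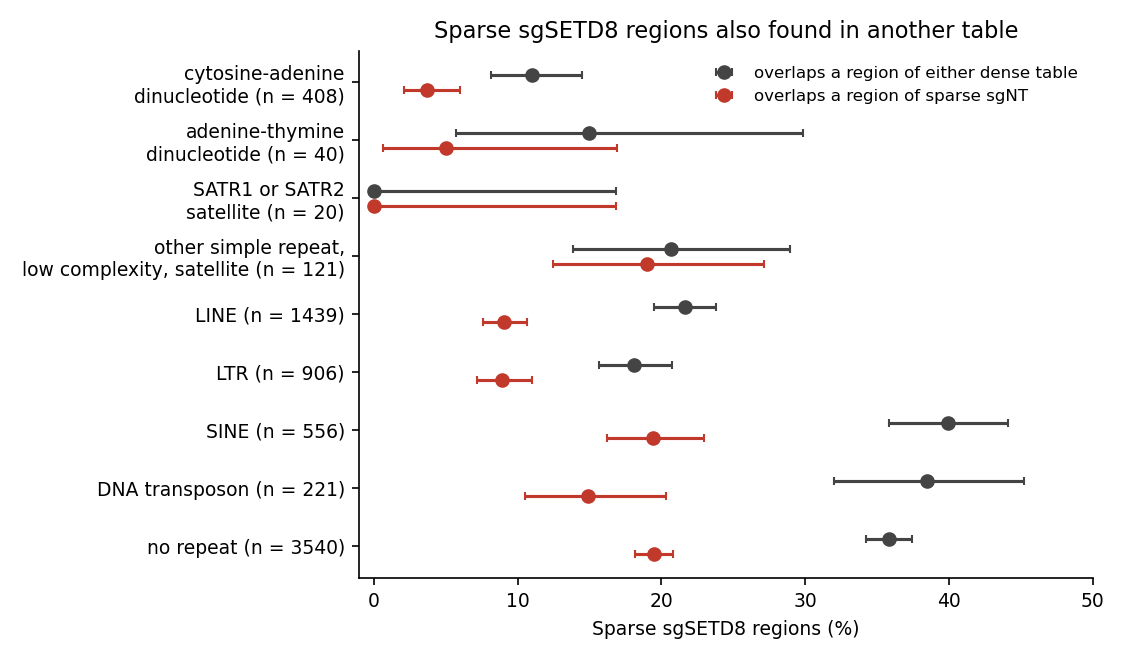
Percent of sparse sgSETD8 regions that overlap a region of either dense table (grey) or of the sparse sgNT table (red), by what lies at the midpoint; bars are exact 95% Clopper-Pearson intervals and n is the number of regions. Of cytosine-adenine dinucleotide regions 11.0% overlap a dense region, against 35.8% of regions without a repeat at the midpoint.

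Among the highest-ranked simple repeats of the sparse sgSETD8 table, 3 of 5 had an AC unit, and these 3 lay in regions that other tables also held with another midpoint. The (CA)n region in the first intron of TRIO, a guanine nucleotide exchange factor, at chr5:14204463-14210229 had rank 54. The (AC)n region at chr16:85571421-85572666, assigned to GSE1, had rank 181. The 5 best-ranked repeat-centred regions without an sgNT counterpart all had an AC unit. They were assigned to LY6H at rank 225, GALNT9 (a glycosyltransferase) at rank 271, IKZF1 at rank 309, MLXIP (a glucose-responsive transcription factor) at rank 378 and SNORA7B (a small nucleolar RNA) at rank 400. LY6H, GALNT9 and SNORA7B had no overlapping region in either dense table, whereas the IKZF1 and MLXIP regions overlapped dense regions of both genotypes with another midpoint.

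Haematopoietic genes were present among the AC-unit regions in small numbers. Of the 16 listed transcription factor genes with a region in sparse sgSETD8, 3 had a repeat-centred one, or 18.8%, where 10.2% of all 5266 genes with a region did. IKZF1, which encodes the lymphoid and myeloid regulator Ikaros, had a (TG)n region at chr7:50334436-50335355 in an intron with a density of 3.83. RUNX2, a paralogue of RUNX1, had one at chr6:45553793-45554295 with a density of 1.09 and rank 1757. ERG, an ETS factor of blood stem cells, had an (AC)n region at chr21:38622457-38622851 with a density of 1.11 and rank 2250. The RUNX2 and ERG regions overlapped no region of the other 3 tables. Among myeloid and progenitor genes 1 of 12 had a repeat-centred region, a (GACACA)n one at chr1:36613710-36614067 assigned to CSF3R, the receptor for granulocyte colony-stimulating factor, at rank 2263.

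In sparse sgNT 1 of 17 listed transcription factor genes had a repeat-centred region, a GA-rich one at chr12:11839184-11839713 in an intron of the ETS repressor gene ETV6, at rank 1773. In dense sgNT the listed genes with one were GFI1, a myeloid transcriptional repressor, IKZF2, the stem cell antigen gene CD34, and PPARGC1B, a coactivator of mitochondrial genes. In dense sgSETD8 they were FLI1, RUNX1, CD34 and the activation marker CD69. The RUNX1 region at chr21:34851935-34852407 had an (AAAAC)n midpoint, a density of 0.550 and rank 15726 of 18061, and overlapped no region of the other 3 tables. None of 20 listed genes for enzymes and readers of H4K20 and H3K27 modification had a repeat-centred region in any table, with 3, 5, 12 and 13 of them having any region. Over all genes with a region the share with a repeat-centred one was 1.65, 10.2, 1.61 and 1.80%. In dense sgNT 2 of 23 listed transcription factor genes had one (8.70%), with 1 of 14 myeloid and progenitor genes (7.14%). Of 13 mitochondrial homeostasis genes with a region, 1 had one (7.69%). For the same lists dense sgSETD8 had 2 of 22 (9.09%), 2 of 16 (12.5%) and 0 of 15. The dense shares above 0 exceeded those over all genes, but each rests on 1 or 2 genes and was not tested.

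The sgNT and dense tables placed other repeats at the top. In sparse sgNT the 5 best-ranked simple repeats included a (TTCT)n region of B3GNTL1 at rank 131. A (CAGGT)n region of ZMIZ1, a transcriptional coactivator, followed at rank 198, and INSIG1, a sterol sensor of the endoplasmic reticulum, had the only AC unit among the 5, at rank 240. In dense sgNT the first simple repeats were the (CTTTC)n midpoint of an 82637-bp region of PLCG2, a phospholipase of B cell and myeloid signalling, at rank 183 and the (ATTC)n midpoint of a 79251-bp region of PPARGC1B at rank 207, after a G-rich midpoint assigned to LINC01063 at rank 157. In dense sgSETD8 the A-rich midpoint of a region assigned to GNAQ, a G protein subunit, had rank 9, and the (C)n midpoint of a 106953-bp region of IRF2, an interferon regulatory factor, had rank 97. These wide regions join many peaks, and a midpoint then need not lie in a peak. The median width of repeat-centred regions was 1972 bp in dense sgNT and 1845.5 bp in dense sgSETD8, against 495.5 bp and 413 bp in the sparse tables.

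Overlaps of repeat-centred regions had a repeat-centred partner less often in the dense pair than in the sparse pair. Of 112 overlaps between a repeat-centred dense sgNT region and a dense sgSETD8 region, 11 had a repeat-centred partner, or 9.82%. A partner of the same class was found in 40.1% of overlaps for LINE midpoints, 39.5% for LTR, 30.9% for SINE and 19.1% for DNA transposons. LINE midpoints were 13.9% of the dense sgSETD8 regions and repeat-centred ones 0.986%, so partners of the same class were not equally available. The midpoints of the 112 lay a median of 1698 bp apart. In the sparse pair 19 of 29 overlaps of repeat-centred sgNT regions had a repeat-centred partner, or 65.5%, with midpoints a median of 99 bp apart. From the sparse sgSETD8 side it was 19 of 40, or 47.5%, with a median of 248 bp. For LINE midpoints the share was 50.0% from the sgNT side and 52.7% from the sgSETD8 side. For SINE midpoints it was 28.9% and 24.1%, below the 30.9% and 29.7% of the dense pair. Repeat-centred regions were 1.31% of sparse sgNT and 8.10% of sparse sgSETD8, so the availability of such partners also differed between the pairs. Over all 4 tables the 978 regions merged, where they overlapped, into 933 loci, of which 894 came from 1 table, 35 from 2, 2 from 3 and 2 from 4. The 2 loci in every table were a (CCTGGC)n locus assigned to ANKRD62 on chromosome 18 and a G-rich locus assigned to ANKRD20A11P on chromosome 21. At both, the sparse sgNT and sparse sgSETD8 regions did not overlap each other and were merged only through a dense region.

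At 19 places a repeat-centred region of sparse sgNT overlapped one of sparse sgSETD8, and the sgSETD8 region stood higher in its table at 18 of them. The median rank percentile was 71.0 in sgNT and 11.8 in sgSETD8. Over all 1089 overlaps of the sparse pair the sgSETD8 region stood higher in 681, or 62.5%, with medians of 18.0 and 12.4. Densities are given side by side and no change is read from them, because it is not known whether the tables share a scale: the median over all regions was 1.49 in sparse sgNT and 0.810 in sparse sgSETD8. The (TG)n region assigned to IQGAP2, a scaffold protein, had a rank percentile of 88.4 in sgNT (density 0.622) and 11.8 in sgSETD8 (density 1.48). The (GT)n region assigned to TACC1 had 71.0 (density 1.35) and 5.54 (density 2.07). The (CCTAT)n region in an intron of SLC6A11, a GABA transporter, had 89.8 (density 0.968) and 12.5 (density 2.33). Rank also reflects width, and density can differ the other way: the (CCACG)n region assigned to SNORA114 had 6.56 (density 5.97) and 2.19 (density 4.31). The exception was a (CACAC)n region assigned to GOLM1, a Golgi membrane protein, with 80.0 in sgNT and 83.1 in sgSETD8. The 2 (TCTC)n regions assigned to MIR6724 genes lie in ribosomal DNA, whose copies are nearly identical, so their positions are uncertain.

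**Figure D5:**
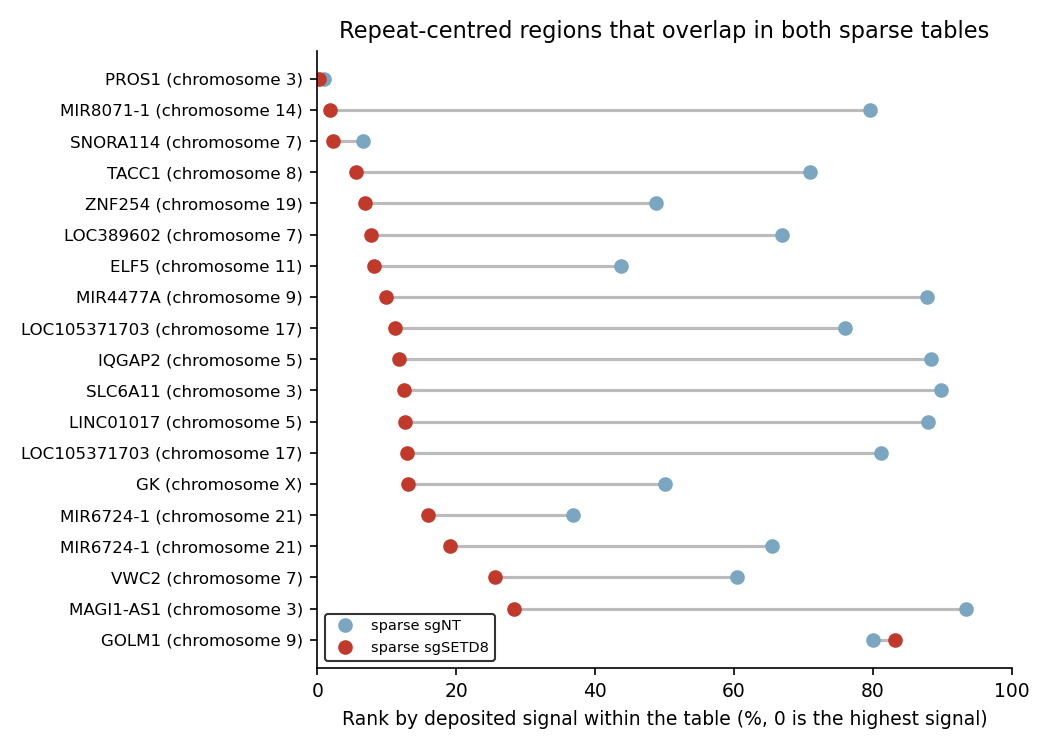
Rank percentile of the deposited signal (0 is the highest signal of a table), sparse sgNT in blue and sparse sgSETD8 in red, for the 19 places where repeat-centred regions of both tables overlap, labelled by the assigned gene. The sgSETD8 point lies to the left at 18 of 19, with GOLM1 as the exception.

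Satellites were few, and most of those in sparse sgSETD8 belonged to the SATR families, which no other table held. Their copies resemble each other, and how the authors treated reads that fit several copies is not given in the sources used here, so the positions are uncertain. Of the 32 satellite regions of sparse sgSETD8, 11 were SATR2 and 9 were SATR1, elements that also occur outside centromeres. These 20 lay on 12 chromosomes, had widths of 274 to 609 bp and densities of 0.550 to 1.63, and ranked between 1550 and 6849. Among them 7 had the shortest width of the table, 4 were assigned to olfactory receptor genes of the OR7E group, and 0 overlapped a region of any other table. Apart from them there were 3 ALR/Alpha regions, the centromeric alpha satellite, and 1 region each of SAR, BSR/Beta, ACRO1, SST1, GSAT, HSAT5, HSATI, CER and (CATTC)n. The ACRO1 region at chr4:49512643-49514697 had rank 491 and no counterpart.

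All but 1 of the 5 satellite regions of sparse sgNT were also satellite regions of sparse sgSETD8. The SAR region on chromosome 3, assigned to PROS1 from 503531 bp away, had a density of 44.1 and rank 47 in sgNT at chr3:93470252-93470848, and 65.1 and rank 18 in sgSETD8, with the caution on density scales given above. It overlapped no region of the dense tables. An ALR/Alpha region at chr17:26603726-26604056 had a density of 1.27 and rank 3944 in sgNT, and 3.67 and rank 817 in sgSETD8. Another at chr17:26881226-26881539 had 1.18 and rank 4210, and 3.19 and rank 943. A BSR/Beta region in an intron of ZNF254 had 2.09 and rank 2529 at chr19:24054377-24054781 in sgNT, and 2.29 and rank 501 in sgSETD8. It was the only satellite of the dense pair, with a density of 0.836 and rank 13261 in dense sgSETD8. The SST1 region at chr9:41643637-41644213, assigned to FAM27E2, had a density of 0.764 and rank 3853 in sparse sgNT and no counterpart.

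In the dense pair the signal itself could be compared at regions that covered each other by at least 90%, of which there were 1769. The log2 density of sgSETD8 over sgNT had a median of -0.26 over them, which was subtracted. For the 29 of these with a repeat-centred midpoint in either table, the difference from that median ran from -0.28 to 0.63, with a median of 0.02 and an SD of 0.25 over the 29 regions. The SD over all 1769 was 0.24. A difference beyond 0.5 was counted as higher or lower: 2 of 29 were higher, beside 2.49% of all matched regions, and 0 of 29 were lower, beside 1.92%. With 1 table a genotype there is no replicate behind these values. A (TCTC)n region assigned to LGALS3, which encodes galectin-3, had a density of 0.314 in sgNT and 0.405 in sgSETD8, or 0.63. An A-rich midpoint in an intron of CBLB, a ubiquitin ligase of immune signalling, had 0.290 and 0.354, or 0.55. At the low end ATAD2B had 0.899 and 0.615, or -0.28, and PPARGC1B 0.795 and 0.545, or -0.28. Only 2 of the 29 had an AC unit, assigned to TRAK1 (0.20) and LOC100287846 (-0.10). The 29 split into 3 with a repeat-centred midpoint in both tables, 15 in sgNT alone and 11 in sgSETD8 alone.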

How the data were processed

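H3K27ac CUT&Tag regions of 4 Kasumi-1 samples, 2 sgNT and 2 sgSETD8, were taken from 4 deposited tables. The submitters' processing notes name cutadapt, Bowtie2 and hg38; how peaks were called, joined and annotated is not given in the sources used here. A mark other than H3K27ac stands in the series' design text, and the sample labels' H3K27ac was used. The deposited signal of each region equals a density of up to 4 decimals times its width; its scaling and the read depth are unknown, so it served for ranks and density within a table; densities of the sparse tables are set side by side only, and those of the dense pair were compared after subtracting the median. Every value column had a group (0 without one). The sparse sgNT table names no guide and was placed by the cell line name alone. Midpoint classes were read from the 3-field annotation; repeat units were reduced to the first rotation in alphabetical order over both strands. Overlaps used bedtools 2.31.1, and intervals (95%, Clopper-Pearson) scipy 1.17.1 with Python 3.11.15, pandas 2.3.3 and numpy 2.4.6. Counting was tested on simulated tables. Named regions are the 5 best-ranked of each class and table, all satellites where a table holds few, the 5 best without a counterpart, overlapping sparse regions, the extremes of the matched regions and members of 4 gene lists (100 genes), or examples from these; a few are not reported here. The regions and lists were chosen with earlier results of these data known. Alternatives left out narrow or low-ranked regions, required an overlap of 50%, changed the matching, and, chosen after seeing the data, left out the AC unit, regions of the shortest width, or regions not found in the other pair.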

Additional observations from a re-analysis of the deposited data

How the results depend on the processing

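The log2 ratio of the repeat-centred share in the sparse pair was 3.35 for regions of at least 500 bp and, in alternatives chosen after seeing the data, 1.31 without the AC unit and 1.87 for regions found in the other pair. The mean over pairs ran from 0.06 with the dense pair alone to 2.63 with the sparse pair alone under leave-one-out. The satellite difference (sgSETD8 minus sgNT) was 2 in the sparse pair at 500 bp or more and 2 among regions found in the other pair, and 0 in the dense pair at 500 bp or more and among the best 5000 regions. The percent of repeat-centred regions without a counterpart became, in sparse sgSETD8, 95.4 at an overlap of 50%, 86.2 without the AC unit and 69.7 for regions found in the other pair. In sparse sgNT it became 72.7 at 500 bp or more. In dense sgNT it became 17.0 at 500 bp or more, 39.2 at an overlap of 50% and 15.6 for regions found in the other pair. In dense sgSETD8 it became 22.6 among the best 5000, 51.7 at an overlap of 50% and 22.2 for regions found in the other pair. No share over all regions is given for the changed overlap rule or for the subsets. These moves are therefore not read as particular to the repeat-centred regions. The median rank percentile became, in sparse sgSETD8, 60.3 at 500 bp or more, 36.9 among the best 5000, 37.5 without the AC unit, 41.0 for regions found in the other pair and 35.2 for regions wider than the shortest (a setting also chosen after seeing the data); in sparse sgNT 42.8 at 500 bp or more; and in dense sgSETD8 40.4 among the best 5000. Ranks were taken anew in each subset, so a subset of wide regions moves them by construction. At a mutual cover of 50%, 5 of the matched repeat-centred dense regions were higher and 2 lower, and their total is not given. Of the 3 matched at 90% and repeat-centred in both genotypes, 1 was higher. With nothing subtracted 0 of the 29 were higher and 4 lower, with a median of -0.25. Shares over all matched regions are not given under these settings, so the counts are not set against a background. The dense log2 ratio of shares turned to -0.08 among the best 5000 and lay between 0.01 and 0.16 under the other settings. All regions lie on chromosomes 1 to 22 and X, so keeping every sequence changed nothing. The cause of the other moves was not tested. No paired analysis was possible because the sample labels carry no replicate numbers, and the identifiers give only the dense tables a number, the same in both; the pairs used here rest on table size and naming. The unknown read depth, 1 table a genotype in each pair, and the unresolved placing of reads in repeats limit every value.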
